A study of Mus musculus with 4 samples.

Results

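The 9 genes described here carry the group label of epithelial acute-phase and antimicrobial genes, which need not fit each of them equally. They are Saa1 (ENSMUSG00000074115), Saa2 (ENSMUSG00000057465), Ltf (ENSMUSG00000032496), Lcn2 (ENSMUSG00000026822), Chil1 (ENSMUSG00000064246), Wfdc18 (ENSMUSG00000000983), Slpi (ENSMUSG00000017002), Lbp (ENSMUSG00000016024) and Clca3a2 (ENSMUSG00000028262), 9 of the 32285 genes counted, and each symbol matched 1 row. They were followed in mammary tumors by single-cell RNA sequencing (10x Genomics 3' v3 kit), which counts unique molecular identifiers (UMIs), each standing for 1 captured RNA molecule, per gene and cell barcode. The tumors came from PyMT mice homozygous for a floxed Frmd8 allele (Frmd8 fl/fl), all at 17 to 18 weeks. The mice either lacked the MMTV-Cre transgene (MMTV-Cre-, here Cre-, replicates 1 and 3) or carried it (MMTV-Cre+, here Cre+, replicates 2 and 4). Each library was taken as 1 mouse, which the paper does not state. Both genotypes carry the PyMT oncogene, driven by the MMTV promoter in mammary epithelium, and the floxed Frmd8 alleles. The Cre- mice keep Frmd8, whereas in Cre+ mice the same promoter drives Cre, mainly in mammary epithelium. Where deletion took place was not tested here. The paper examined Frmd8 protein in mammary glands by immunohistochemistry, in tumors and adjacent tissue by multiplex immunofluorescence, and in different tissues by western blot. It examined Frmd8 mRNA in mammary glands by qRT-PCR and in normal and tumor cells of both genotypes by single-cell RNA sequencing.

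Barcodes with at least 1000 UMIs and at most 20% mitochondrial UMIs were kept as cells, 4922, 5609, 5918 and 7123 in replicates 1 to 4. Of these 23572 cells, 10968 held Epcam, Krt8 and Krt18, the defining epithelial genes, at a summed level of at least 10 per 10,000 UMIs and were taken as epithelial (2526 to 3200 per library). The other cells went to the class with the highest summed marker panel, and 73 to 224 per library stayed unassigned. The fibroblast class had a median panel of 342, 411, 264 and 63.6 per 10,000 in replicates 1 to 4. It thus need not hold like cells in each library. The epithelial cut falls within a range of levels, with 57 to 165 cells per library at 8 to 10 and 38 to 115 at 10 to 12 per 10,000. Of the epithelial cells, 8.57 to 24.5% per library also held the panel of another class at 10 per 10,000 or more. No doublet caller was run. The median epithelial cell had 22010.5, 13297, 15810.5 and 11580.5 UMIs in replicates 1 to 4. The files of replicates 1 to 3 hold only barcodes already called as cells, while that of Cre+ replicate 4 holds every barcode and comes from another Cell Ranger version, so that form, version and genotype overlap. Libraries shared 6 to 16 cell barcodes per pair. Frmd8 itself stood at 24.2 and 24.1 CPM in Cre- epithelial cells and at 5.68 and 10.9 in Cre+ (replicates 2 and 4). In the other cells it stood at 27.4 and 25.4 CPM in Cre- and 18.8 and 15.2 in Cre+. However, a 3' count need not fall when inner exons are removed and so is no check of the deletion. The members were chosen by their levels in the epithelial cells of these same libraries. Differences between classes are therefore given as a description, with no test.

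Acute-phase proteins are best known from the liver, where inflammatory cytokines induce them through the transcription factors C/EBP, STAT3 and NF-kB. Epithelia that face the outside, the mammary gland among them, secrete several of the same proteins into milk and mucus, and their output in the gland rises at involution and in mastitis. Saa1 and Saa2 encode serum amyloid A apolipoproteins. Ltf (lactoferrin) and Lcn2 (lipocalin 2) withhold iron from bacteria, the first by binding iron and the second by binding the bacterial carriers of iron. Chil1 encodes a chitinase-like lectin. Slpi and Wfdc18 carry the WAP four-disulfide core of protease inhibitors, Lbp binds bacterial lipopolysaccharide, and Clca3a2 belongs to the family of calcium-activated chloride channel regulators.

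The sequences upstream of Saa1, Saa2 and Lcn2 are shown because both Saa genes are close copies, which bears on their counts, and because all 3 share a C/EBP match. They are the 250 bases before the transcript start from RefSeq (assembly GRCm38.p6), 5′ to 3′ on the strand of the gene, with capitals marking the match to TTGCNNAA. The Saa1 stretch lies at chr7:46742981-46743230 (minus strand), the Saa2 stretch at chr7:46751583-46751832 (plus strand) and the Lcn2 stretch at chr2:32387740-32387989 (minus strand).
Saa1: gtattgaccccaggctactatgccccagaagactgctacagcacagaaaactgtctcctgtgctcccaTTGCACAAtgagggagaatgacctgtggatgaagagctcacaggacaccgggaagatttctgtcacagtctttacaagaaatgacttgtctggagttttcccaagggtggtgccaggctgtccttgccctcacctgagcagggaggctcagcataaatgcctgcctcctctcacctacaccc
Saa2: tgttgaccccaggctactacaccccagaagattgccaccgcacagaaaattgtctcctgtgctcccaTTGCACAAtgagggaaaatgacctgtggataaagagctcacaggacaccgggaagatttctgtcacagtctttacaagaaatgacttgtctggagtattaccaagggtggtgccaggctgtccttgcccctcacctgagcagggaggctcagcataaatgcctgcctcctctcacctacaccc
Lcn2: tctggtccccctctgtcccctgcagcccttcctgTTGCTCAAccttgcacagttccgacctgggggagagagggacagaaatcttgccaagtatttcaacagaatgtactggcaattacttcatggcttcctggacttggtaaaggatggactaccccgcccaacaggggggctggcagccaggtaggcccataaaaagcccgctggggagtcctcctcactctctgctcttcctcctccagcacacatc
Both Saa stretches were 94.8% identical (238 of 251 aligned columns), and the transcripts Saa1-201 and Saa2-201 of GENCODE M21 were 93.9% identical over 609 columns. None of the 510 windows of 100 bases of the Saa1 transcript occurred unchanged in Saa2. How reads that fit both were assigned was not tested, so that a division of the counts between Saa1 and Saa2 remains uncertain.

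The RefSeq table held such a window for 8 of the 9 members, not for Lbp. On either strand, TTGCNNAA occurred in 6 of the 8 (Saa1, Saa2, Ltf, Lcn2, Slpi and Clca3a2), against 9.56% of the 32851 windows of all genes. It began 182 and 183 bases before the start of Saa1 and Saa2, 216 before Lcn2, 241 before Slpi, 75 before Ltf and 70 before Clca3a2. A second C/EBP form, TTNNGNAAT, occurred in 4 of 8 against 10.2%, at or overlapping the first in Saa1, Saa2, Slpi and Ltf. In both counts Saa1 and Saa2 are near copies, so that their matches are not independent. The NF-kB motif occurred in 1 of 8 (Clca3a2) against 1.41%, and a looser NF-kB form that every match of the first also meets in 2 of 8 against 16.5%. The STAT motif TTCNNNGAA and its STAT5 form TTCCNGGAA occurred in 0 of 8, against 7.02% and 0.913%. The ETS motif AGGAAG occurred in 3 of 8 against 29.5%, the TATA box TATAAA in 1 of 8 (Wfdc18) against 12.4%, the interferon response motif in 1 of 8 (Clca3a2) against 2.98% and the glucocorticoid receptor motif in 0 of 8 against 0.00913%. These are matches of letters in a short window and not sites of binding.

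By cell class, the 9 genes did not behave as 1 epithelial group. Among the 9 named classes, Saa1, Saa2, Lcn2, Wfdc18 and Clca3a2 had their highest level in epithelial cells in 4 of 4 libraries. Ltf did so in 3 and Chil1 in 1. Slpi and Lbp did so in 0 of 4. Lbp was highest in fibroblasts, so that the epithelial label does not hold for it. Slpi was highest in neutrophils or in the small B class, and in 1 of 4 libraries in epithelial cells when the B class was left out, although 78.2 to 95.9% of its UMIs lay in epithelial cells. All levels below are UMIs of the gene per 10,000 UMIs of the class, which says nothing about the number of cells against the RNA in each. They count 3' ends and are compared between classes and libraries rather than between genes.

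**Figure D1:**
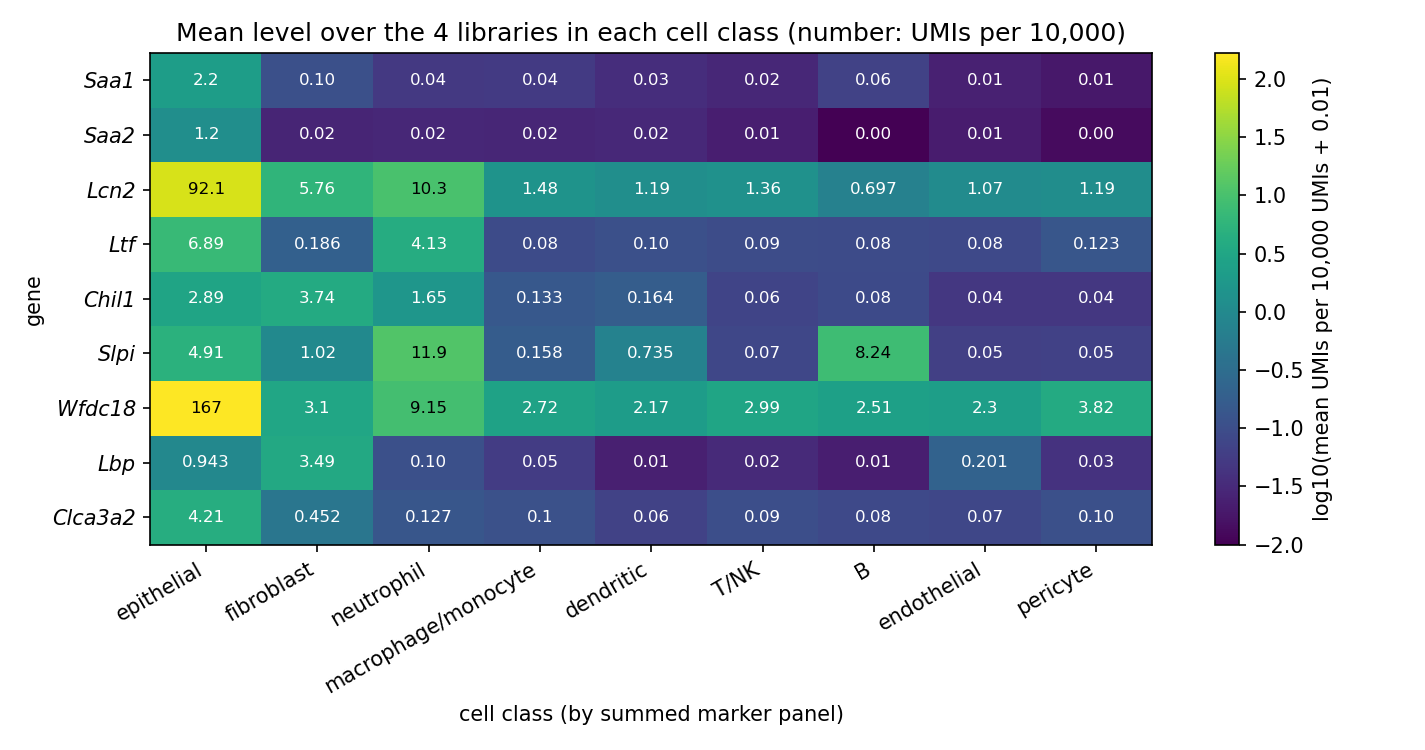
Mean level of each gene (rows) in each cell class (columns), in UMIs per 10,000 UMIs and averaged over the 4 libraries, with color on a log10 scale. Lcn2 and Wfdc18 stood at 92.1 and 167 in epithelial cells, Lbp was higher in fibroblasts (3.49) than in epithelial cells (0.943), and Slpi was highest in neutrophils (11.9).

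Saa1 was counted at 5.26, 2.03, 0.975 and 0.559 per 10,000 in the epithelial cells of replicates 1 to 4 (mean 2.20 ± 2.13, SD, n = 4). Saa2 was counted at 2.63, 1.24, 0.566 and 0.357 (mean 1.20 ± 1.03). The order of the libraries was thus the same for both genes, Cre- replicate 1 highest and Cre+ replicate 4 lowest. Fibroblasts held Saa1 at 0.0609 to 0.114, and the highest value in any other named class was 0.179 (B class of Cre- replicate 1, 2 UMIs). For Saa2 the highest value outside epithelium was 0.0698 (dendritic class of Cre- replicate 1, 5 UMIs). In the B class, 0 Saa2 UMIs were counted in all 4 libraries. The unassigned cells were not counted as a class. Their median epithelial panel was 3.38 to 6.71, under the cut, and their Saa1 in Cre+ replicate 2, 221 UMIs, came from 1 of 73 cells.

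Lcn2 was counted at 91.6, 113, 120 and 43.7 per 10,000 in epithelial cells (mean 92.1 ± 34.5). In neutrophils it was 5.88, 16.5, 7.47 and 11.2, and in fibroblasts 9.03, 3.92, 4.08 and 6.03, with ranges that overlapped. The remaining named classes lay between 0.252 and 2.35, and unassigned cells between 10.9 and 38.0. Wfdc18, known as a WAP protein of the involuting gland, was counted at 223, 116, 154 and 176 in epithelial cells (mean 167 ± 44.6). It was at 7.26 to 11.9 in neutrophils and 0.862 to 5.21 in the other named classes, and at 13.9 to 71.4 in unassigned cells. Neutrophils were shallow, with median depths of 3627 to 3927.5 UMIs against 10364 to 15016 in macrophages and monocytes. The part of RNA set free from epithelial cells in their Wfdc18 level was not tested. Clca3a2 was counted at 7.67, 3.24, 4.41 and 1.52 in epithelial cells (mean 4.21 ± 2.59). Fibroblasts ranged from 0.018 in replicate 4 to 1.26 in replicate 1 and every other named class was at 0.258 or below, while unassigned cells of Cre- replicate 3 reached 8.71 (169 cells).

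Ltf was counted at 15.2, 5.09, 1.51 and 5.74 per 10,000 in epithelial cells (mean 6.89 ± 5.85). In neutrophils it was 2.91, 0.221, 0.159 and 13.2, so that Cre+ replicate 4 alone had a higher Ltf level in neutrophils than in epithelial cells. Those 656 UMIs came from 13 of 105 neutrophils (12.4%), whereas 36.8% of the epithelial cells of that library held an Ltf UMI. Lactoferrin is a protein of the secondary granules that neutrophils fill during maturation. Retnlg, 1 gene of the neutrophil panel, stood at 43.2 in the neutrophils of that library against 3.49 to 12.8 in the others. The summed panel had a median of 254 there against 290, 243 and 209 in replicates 1 to 3. The granule genes Ngp and Camp were at 0 to 0.0604 in all 4 libraries. The part of these genes in the Ltf level was not tested. In all other named classes Ltf stayed between 0 and 0.592, and in unassigned cells between 0.0374 and 3.40.

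Chil1 was counted at 5.07, 5.32, 1.02 and 0.132 in epithelial cells (mean 2.89 ± 2.69). In fibroblasts it was 11.5, 1.86, 1.39 and 0.221 and in neutrophils 2.37, 1.24, 0.603 and 2.38. In unassigned cells it was 9.42, 2.11, 3.77 and 0.15. Among the named classes, epithelial cells led in Cre+ replicate 2, fibroblasts in both Cre- libraries and neutrophils in Cre+ replicate 4, and the 3 ranges overlapped. The gene was thus low in the epithelial cells and the fibroblasts of the same library, Cre+ replicate 4.

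Slpi was counted at 4.17, 2.04, 11.5 and 1.94 in epithelial cells (mean 4.91 ± 4.50) and at 7.26, 14.7, 8.59 and 16.9 in neutrophils (mean 11.9 ± 4.66). Neutrophils were above epithelial cells in replicates 1, 2 and 4 and below them in replicate 3. The B class held 7.27, 8.39 and 17.3 in replicates 1 to 3, carried by 3 of 12, 3 of 22 and 5 of 18 cells, and 0.0315 in replicate 4, 1 UMI in 81 cells. Jchain, a gene of antibody-secreting cells, stood at 179, 355 and 566 over the whole B class of replicates 1 to 3 and at 0 in replicate 4. Whether the cells with Slpi were those with Jchain was not tested. The dendritic class of replicate 3 had 2.25, and every other named class outside these and the fibroblasts (0.228 to 1.43) was at 0.321 or below. Unassigned cells held 12.1, 2.28, 3.52 and 5.85. Lbp was counted at 0.865, 0.861, 1.29 and 0.76 in epithelial cells (mean 0.943 ± 0.235) and at 2.32, 4.91, 3.72 and 2.99 in fibroblasts (mean 3.49 ± 1.11). The fibroblast values lay above the epithelial values in every library without overlap. Endothelial cells held 0.12 to 0.328 and the remaining named classes at most 0.221.

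Against all other cells pooled, the epithelial level was higher by a factor of 48.2 to 72.6 for Saa2, 34.4 to 65.9 for Wfdc18, 22.0 to 70.7 for Ltf, 23.2 to 38.4 for Lcn2, 17.8 to 52.3 for Saa1 and 11.0 to 64.0 for Clca3a2. The factor was 3.15 to 15.8 for Slpi and 1.64 to 6.80 for Chil1. For Lbp it was 0.483 in Cre+ replicate 2 and 1.39 to 2.11 in the others. Just outside the epithelial cut, at 8 to 10 per 10,000 of the 3 marker genes, the mean Wfdc18 level over the libraries was 60.4 and that of Lcn2 43.8, against 57.9 and 48.0 just inside at 10 to 12 and 176 and 94.3 at 20 and above. A stricter cut of 20 moves such cells to the other side and lowers the factors of 6 members by more than their spread between libraries. Under upper limits of 5000 genes and 30000 UMIs per cell, the factors of Chil1 rose to 8.21, 21.7 and 8.31 in replicates 1 to 3 and stood at 1.81 in replicate 4, while that of Saa1 in replicate 4 fell to 7.35.

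Droplets also capture RNA set free from broken cells, so that a cell can hold UMIs of a gene it does not express. In Cre+ replicate 4, the library with empty droplets, 2078989 barcodes of up to 100 UMIs held Wfdc18 at 95.3 per 10,000, Lcn2 at 19.3, Ltf at 2.29, Slpi at 1.38 and the other members at 0.0984 to 0.409. These low barcodes also held S100a8, a gene of the neutrophil panel, at 3.00, so that their RNA need not come from 1 class. Relative to Wfdc18, Lcn2 stood at 0.203 in these barcodes, 0.248 in epithelial cells, 0.299 in macrophages and 0.406 in T/NK cells, but at 0.939 in neutrophils and 2.62 in fibroblasts. For Ltf the ratio was 0.0241 in the low barcodes, 0.0249 in T/NK cells and 1.11 in neutrophils. For Slpi it was 0.0145, 0.0219 and 1.42 in that order. For Lbp it was 0.0043 in the low barcodes and 1.30 in fibroblasts. The ratios of Lcn2, Ltf and Slpi in neutrophils and of Lcn2 and Lbp in fibroblasts were above those in the low barcodes. So were, among others, those of Lcn2 in T/NK cells and of Slpi in fibroblasts (0.593) and macrophages (0.0748). Chil1 stood at 0.2 in neutrophils and 0.0961 in fibroblasts against 0.0012, and Saa1 at 0.0264 in fibroblasts (44 UMIs) against 0.0017. The ratios of Ltf in T/NK cells and macrophages (0.0267) lay close to the low barcodes. The part of free RNA in the level of any class was not tested.

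Shares of cells with a UMI were set beside those in T/NK cells. After thinning every cell to 2000 UMIs, Wfdc18 was detected in 90.8, 93.2, 97.2 and 95.2% of epithelial cells, and in 48.4, 29.9, 46.2 and 35.0% of T/NK cells, which are not known to make it. Lcn2 was detected in 87.3, 97.1, 99.2 and 89.1% of epithelial and 15.8, 22.8, 23.0 and 9.02% of T/NK cells. Saa1 was detected in 17.9, 10.6, 7.64 and 2.12% of epithelial cells and in at most 1.07% of T/NK cells, and Saa2 in 10.7, 6.06, 4.35 and 1.23% against 0 in all 4 libraries (0 of 281 cells in Cre+ replicate 2, which allows a share of up to 1.07% by counting error alone). Before thinning, Saa1 was found in 32.7, 21.8, 15.9 and 5.91% of epithelial cells and in at most 3.20% of T/NK cells. Thinning left out 157 to 600 epithelial cells per library and 0 to 12 T/NK cells. T/NK cells had median depths of 5763 to 13285 UMIs before thinning.

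Within epithelial cells, the members differed widely between mice. The highest library exceeded the lowest by a factor of 40.4 for Chil1, 10.0 for Ltf, 9.41 for Saa1, 7.37 for Saa2, 5.92 for Slpi, 5.04 for Clca3a2, 2.75 for Lcn2, 1.92 for Wfdc18 and 1.69 for Lbp. Under the same upper limits the factor was 52.6 for Saa1, 41.5 for Saa2, 21.3 for Ltf and 13.4 for Clca3a2, and 55.0 for Chil1. For Ltf the highest and the lowest library were both Cre-. For Chil1 both were Cre+. Cre+ replicate 4 was lowest for 7 of the 9 genes, and the exceptions were Ltf, lowest in Cre- replicate 3, and Wfdc18, lowest in Cre+ replicate 2. The share of all genes lowest in Cre+ replicate 4 was not computed, so the count shows no trait of these genes.

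**Figure D2:**
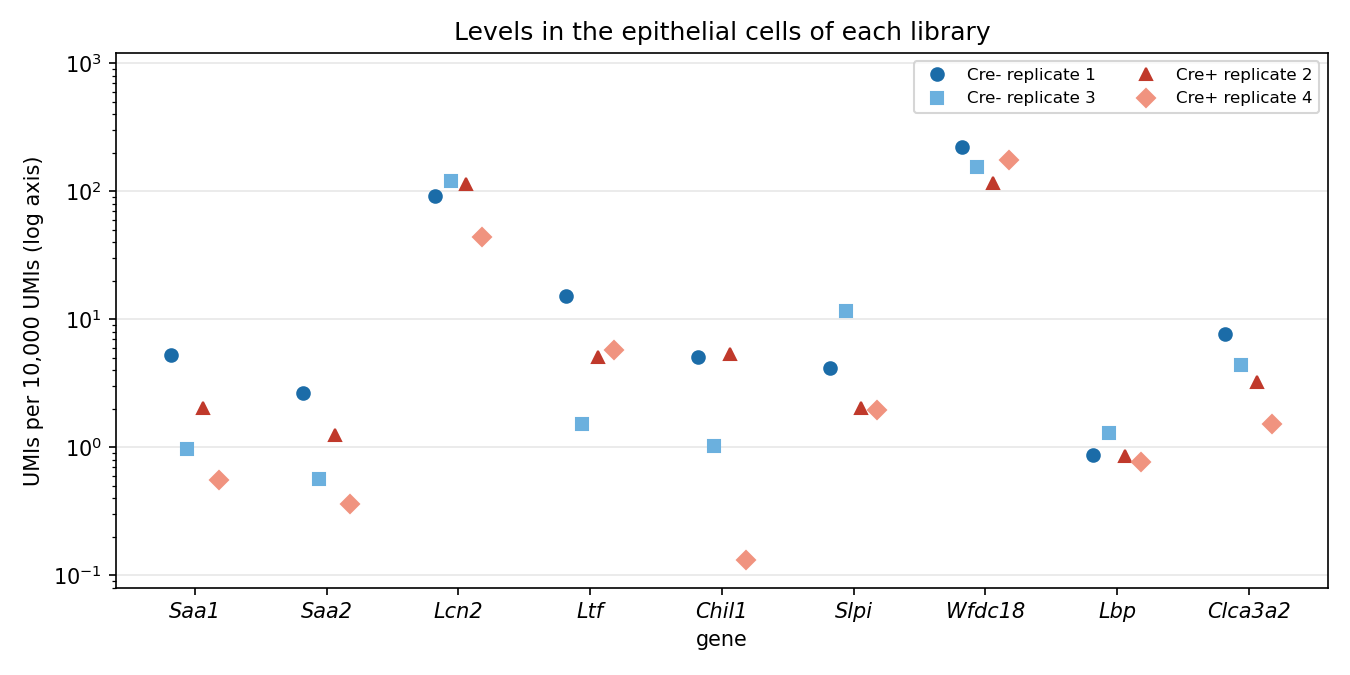
Level of each gene in the epithelial cells of each library, in UMIs per 10,000 UMIs on a log axis, with 1 point per mouse (blue Cre-, red Cre+). Libraries of 1 genotype lie far apart for Chil1 (5.32 and 0.132 in Cre+) and Ltf (15.2 and 1.51 in Cre-), while both Cre- points lie above both Cre+ points for Slpi, Lbp and Clca3a2.

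To ask whether loss of Frmd8 changed these genes in the tumor epithelium, the counts of each library were summed and the genotypes compared by edgeR (quasi-likelihood), adjusting p-values over 16575 genes by the Benjamini-Hochberg method. Slpi was lower in both Cre+ libraries (2.04 and 1.94) than in both Cre- libraries (4.17 and 11.5), with a log2 fold change of -1.91 (SE 0.52, unadjusted p = 0.017, adjusted p = 1.00 by edgeR). Clca3a2 was likewise lower in both Cre+ libraries, with -1.31 (SE 0.45, unadjusted p = 0.036, adjusted p = 1.00 by edgeR). Lbp, at 0.861 and 0.76 against 0.865 and 1.29, gave -0.35 (SE 0.24, adjusted p = 1.00 by edgeR). These 3 of the 9 members had genotypes that did not overlap, all lower in Cre+, against a background of 15.8% of genes lower without overlap (27.5% in either direction). None of the 9 members passed the test, against a background of 0% (0 of 16575 genes; 381 at an unadjusted p under 0.05, and 54 called by DESeq2, with 0 of the members among them). All 9 had a negative log2 fold change, with a median of -0.56 beside 0.016 over all genes tested. The sign was not stable for 6 of them: without Cre- replicate 1, Saa1, Saa2, Ltf and Chil1 stood at 0.41, 0.51, 1.90 and 1.38, Wfdc18 was above 0 without replicate 1 or 2, and Lcn2 and Chil1 were above 0 without replicate 4.

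The members were spread unevenly over the epithelial cells of a tumor. The 10% of epithelial cells with the highest level held 88.4, 92.1, 95.7 and 100% of the Saa1 UMIs in replicates 1 to 4 and 94.8 to 100% of those of Saa2. A gene found in fewer than 10% of cells reaches 100% by construction, which was so for Saa1 and Chil1 in replicate 4 and for Saa2 in replicates 3 and 4. For Ltf the same share was 58.2, 77.6, 94.7 and 83.8%, for Chil1 63.6, 51.6, 92.4 and 100%, and for Slpi 58.5 to 71.3%. Lcn2 (24.4 to 37.4%), Wfdc18 (24.0 to 33.2%) and Lbp (27.1 to 43.7%) were spread more widely. Clca3a2 differed between libraries, at 24.6, 43.4, 31.2 and 70.3%. These cells held 6.51 to 17.8% of all UMIs of their library's epithelium, depending on the gene.

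**Figure D3:**
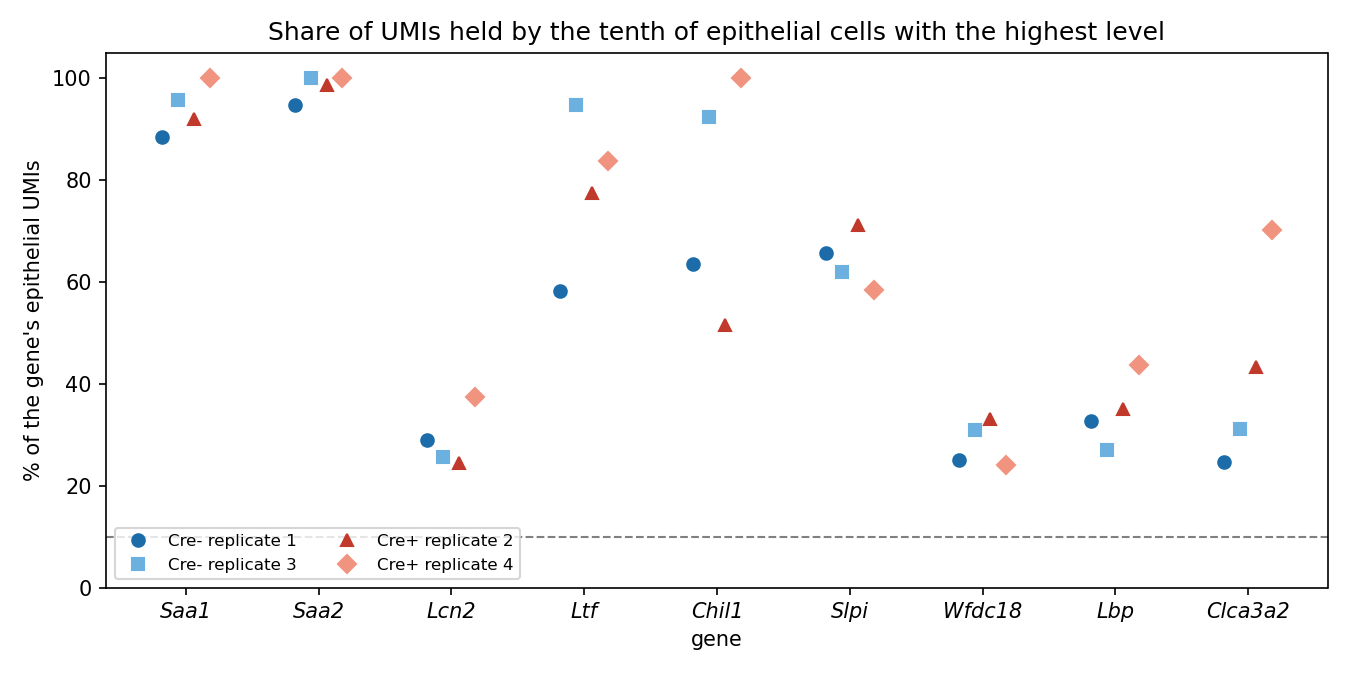
Percent of the epithelial UMIs of each gene that lie in the 10% of epithelial cells with the highest level of that gene, 1 point per library, with a dashed line at 10%. Saa1 and Saa2 points lie at 88.4% and above, and those of Lcn2 and Wfdc18 between 24.0 and 37.4%.

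Co-detection was described in epithelial cells thinned to 2000 UMIs (2330 to 2600 cells per library) as the share of cells with both genes over the product of the single shares. The ratio was above 1 in all 4 libraries for 24 of the 36 pairs of members and below 1 in all 4 for 0 pairs. In cells thinned to 1000 UMIs, 21 pairs were above 1 in all 4. The share over pairs of other genes was not computed, so the count shows no trait of these genes. Pairs with Lcn2 or Wfdc18, found in most epithelial cells, stayed close to 1 (Ltf with Lcn2 at 1.00 to 1.12). Saa1 and Saa2 had the highest ratios, 4.32, 6.61, 8.73 and 29.5, the last from 20 cells with both. Of the cells with Saa2, 77.2, 69.9, 66.7 and 62.5% also held Saa1, against 10.7, 6.75, 4.95 and 1.36% of the cells without Saa2. As close copies these genes may share reads, which was not tested. Of the other members, Chil1 had the highest mean ratio with each Saa gene, at ratios to Saa1 of 1.89, 1.68, 3.48 and 7.16 (5 cells in replicate 4) and to Saa2 of 1.99, 1.54, 3.83 and 4.92 (2 cells in replicate 4). In Cre+ replicate 2, however, Slpi had higher ratios than Chil1 with Saa1 (1.92) and Saa2 (1.77). Thinned to 1000 UMIs, the ratio of Chil1 to Saa2 ranged from 0 to 4.89 between libraries.

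Ltf and Slpi were found together at 1.49, 1.55, 1.47 and 1.78 times the product of their shares. For Ltf with Saa1 the ratio was 1.34, 0.821, 1.96 and 1.77, below 1 only in Cre+ replicate 2 (50 cells with both). For Ltf with Saa2 it was likewise below 1 only in that library (0.86). For Lcn2 and Wfdc18, found in nearly every epithelial cell, the ratio cannot move far from 1 (1.00 to 1.07). Their levels per cell, as log2(level + 1), had a Pearson correlation of 0.68, 0.28, 0.43 and 0.40 across cells, given as a description of cells that share a library. The correlation was 0.59 to 0.71 for Saa1 with Saa2 and 0.21 to 0.45 for Ltf with Wfdc18. It was -0.19 to 0.15 for Chil1 with Wfdc18, the lowest mean of the pairs. The median epithelial cell held 4, 3, 3 and 2 of the 9 members in replicates 1 to 4, and 33.0, 16.8, 13.6 and 3.81% of cells held 5 or more.

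**Figure D4:**
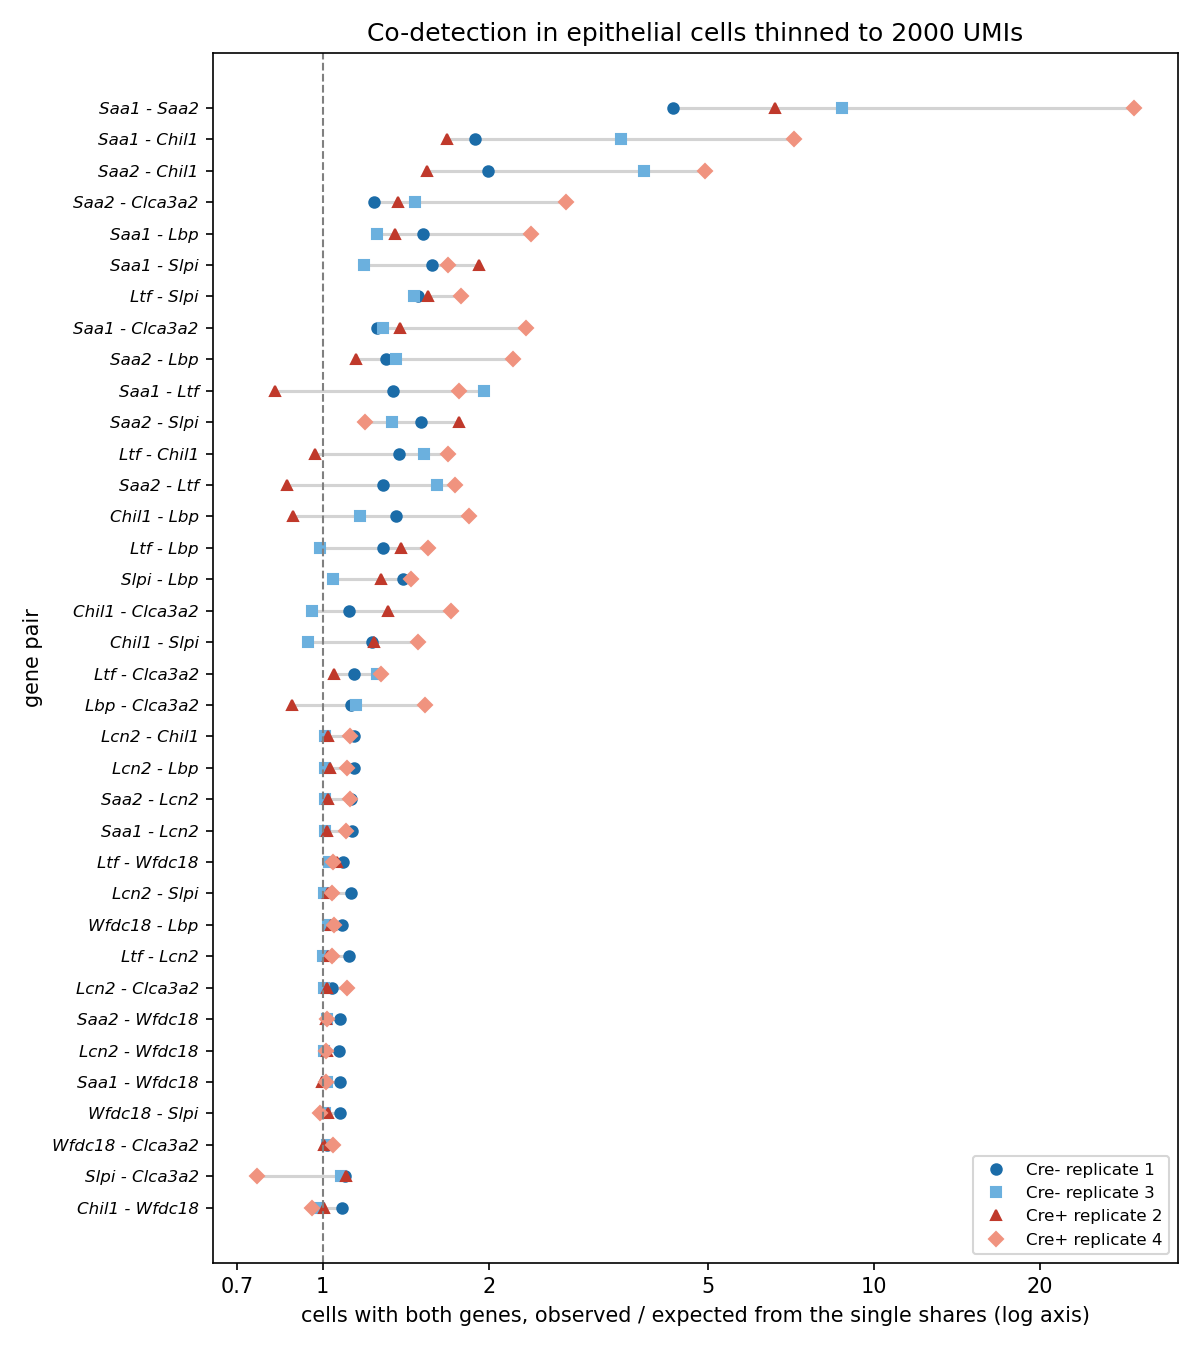
Ratio of the observed share of epithelial cells with both genes to that expected from the single shares, on a log axis, for the 36 pairs of members in cells thinned to 2000 UMIs, 1 point per library. Saa1 with Saa2 lies furthest right (4.32 to 29.5), and 24 pairs lie right of the dashed line at 1 in all 4 libraries. Pairs with Lcn2 or Wfdc18 lie close to that line, and the share over pairs of other genes was not computed.

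To see in which epithelial cells the members were higher, the epithelial cells of each library were ranked by the summed level of a gene panel without members, and the top 10% were compared with the rest. The panels were casein genes (Csn2, Csn3, Csn1s1, Csn1s2a, Wap, Lalba and Glycam1, secretory alveolar), luminal progenitor genes (Kit, Elf5, Aldh1a3, Prom1 and Tnfrsf11a) and basal genes (Krt5, Krt14, Krt17 and Trp63). Each gave 8 sums, 2 per mouse. Both sums of a library come from 1 mouse, and the test is given with and without the mouse as a block, since this changed the calls. The fit without the block was planned as the main one, and the block as its alternative. Without the block, the fit treats the 8 sums as independent although 2 come from each mouse. Its p-values then set the difference against a spread that includes the spread between mice. With the block, they measure how the difference within a mouse varied between the 4 mice.

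Saa1 was counted at 20.4, 5.22, 2.32 and 2.35 per 10,000 in the casein-high cells of replicates 1 to 4 and at 4.36, 1.84, 0.83 and 0.302 in the rest. Saa2 was at 10.0, 3.70, 1.62 and 1.40 against 2.19, 1.10, 0.452 and 0.208. Both genes were higher in the casein-high cells of every mouse. Chil1 was at 20.3, 15.1, 3.02 and 0.283 against 4.17, 4.75, 0.807 and 0.11, and Clca3a2 at 13.9, 8.87, 6.65 and 4.08 against 7.30, 2.91, 4.17 and 1.16, again higher in 4 of 4. Lcn2 was at 152, 174, 149 and 80.4 against 88.0, 109, 117 and 38.5. In all, 7 of 9 members were higher in the casein-high cells in 4 of 4 libraries. Slpi (lower in replicate 4) and Lbp (lower in replicate 2) were higher in 3 of 4. The share of all genes higher in 4 of 4 libraries was not computed.

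With the mouse as a block, 5 of the 9 members were called higher by the edgeR quasi-likelihood test and 0 lower, against a background of 1.26% of genes called higher, 1.72% lower and 2.98% in either direction (439 of 14741). They were Saa2 (log2 fold change 2.21, SE 0.18, adjusted p = 0.0039 by edgeR), Saa1 (2.12, SE 0.26, adjusted p = 0.012), Chil1 (1.90, SE 0.16, adjusted p = 0.0039), Clca3a2 (1.34, SE 0.20, adjusted p = 0.022) and Lcn2 (0.80, SE 0.15, adjusted p = 0.039). Ltf (0.92, adjusted p = 0.12 by edgeR), Wfdc18 (0.65, adjusted p = 0.064), Slpi (0.38) and Lbp (0.37) did not pass. The median of the 9 was 0.92, beside -0.0038 over all genes tested. Without the block, 0 of 9 members and 0% of genes passed in this comparison by edgeR (1070 genes at an unadjusted p under 0.05, 183 called by DESeq2), with Saa1 at 2.14 (adjusted p = 0.68). The blocked count of 439 genes fell to 46, 53 and 108 without replicates 1, 2 and 3 and rose to 2339 without replicate 4. Chil1 stayed called in 9 of 9 such alternatives (adjusted p = 8.8e-05 to 0.032 by edgeR), Saa1 and Saa2 in 8, Clca3a2 in 7 and Lcn2 in 4. Saa1 was lost without replicate 1 (2.05, adjusted p = 0.080 by edgeR), Saa2 under upper limits on genes and UMIs (adjusted p = 0.053 by edgeR), and Clca3a2 without replicate 1 or 2. Casein-high cells were shallower than the rest in replicates 1 and 2 (median 15363.5 against 23764 UMIs and 10492.5 against 14005.5) and deeper in replicates 3 and 4. In cells thinned to 2000 UMIs, 7 members were called higher, Ltf and Wfdc18 in addition.

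In cells high for the luminal progenitor panel, Ltf stood out. It was counted at 61.4, 24.0, 3.70 and 26.8 per 10,000 in these cells and at 12.9, 4.25, 1.39 and 4.33 in the rest, higher in 4 of 4. Wfdc18 was at 380, 201, 224 and 286 against 215, 112, 150 and 169, and Slpi at 6.09, 5.51, 15.4 and 2.50 against 4.07, 1.89, 11.3 and 1.90. Lcn2 hardly differed, at 95.3, 109, 122 and 54.7 against 91.4, 113, 120 and 43.0. Saa1 and Saa2 were higher in 3 of 4 libraries and lower in Cre+ replicate 2, where Saa2 was at 0.411 against 1.28.

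By edgeR with the mouse as a block, Ltf had a log2 fold change of 2.18 (SE 0.17, adjusted p = 0.00013) and Wfdc18 of 0.72 (SE 0.07, adjusted p = 0.00032). Chil1 (0.72), Slpi (0.71), Saa1 (0.66) and Clca3a2 (0.35) were also called higher (adjusted p = 0.018 to 0.029 by edgeR). Lcn2 (0.071), Saa2 (0.42) and Lbp (0.18) were not. These 6 of 9 members stand beside a background of 11.4% of genes called higher and 24.3% in either direction. Without the block, 0 of 9 members were called, against 0.628% of genes, with Ltf at 2.32 (adjusted p = 0.26 by edgeR), while DESeq2 called Ltf alone among the members. The progenitor-high cells were shallow, with median depths of 9676.5, 7100, 7314 and 8500.5 UMIs against 24768.5, 14961, 16982 and 12007.5 in the rest. With cells thinned to 2000 UMIs, 633 genes were called in place of 3593, and 4 members, Ltf (1.5), Wfdc18 (0.48), Slpi (0.59) and Chil1 (0.40). Ltf and Wfdc18 stayed called in 9 of 9 alternatives, Slpi in 8, Chil1 in 6, and Saa1 and Clca3a2 in 3 each. Under upper limits on genes and UMIs, Ltf and Wfdc18 were the only members called, and Saa1, Saa2 and Chil1 turned to -0.27, -0.66 and -0.16.

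In cells high for the basal panel, Ltf was at 29.3, 10.9, 3.48 and 10.4 per 10,000 against 13.7, 4.48, 1.36 and 5.27, and Slpi at 8.98, 3.20, 19.0 and 4.83 against 3.66, 1.92, 10.9 and 1.65. Both were higher in 4 of 4 libraries. Clca3a2 was lower in 4 of 4, at 5.70, 1.36, 2.04 and 0.17 against 7.87, 3.44, 4.6 and 1.66. Saa1 and Saa2 were higher in 3 libraries and lower in Cre+ replicate 2, where Saa2 was at 0.213 against 1.35.

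By edgeR with the mouse as a block, Ltf (log2 fold change 1.19, SE 0.11, adjusted p = 0.0073) and Slpi (1.11, SE 0.14, adjusted p = 0.014) were called higher, 2 of 9 members against a background of 2.81% of genes called higher and 2.09% lower (4.9% in either direction). Clca3a2 had -1.47 (SE 0.42, adjusted p = 0.095 by edgeR) and passed only in cells thinned to 2000 UMIs and under 2 other settings. Chil1 had 1.07 (adjusted p = 0.058 by edgeR). Without the block, 0 of 9 members and 0% of genes passed by edgeR (1598 at an unadjusted p under 0.05, 461 called by DESeq2), with Ltf at 1.13 (adjusted p = 0.67). The blocked count of 731 genes fell to 15 without replicate 3, and the calls of Ltf (adjusted p = 0.086 by edgeR) and Slpi (adjusted p = 0.094) were then lost. It was 149, 349 and 1213 without replicates 1, 2 and 4. Slpi was also lost without replicate 1, and Ltf under the upper limits on genes and UMIs (adjusted p = 0.13 by edgeR). No test of one panel against another was made.

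**Figure D5:**
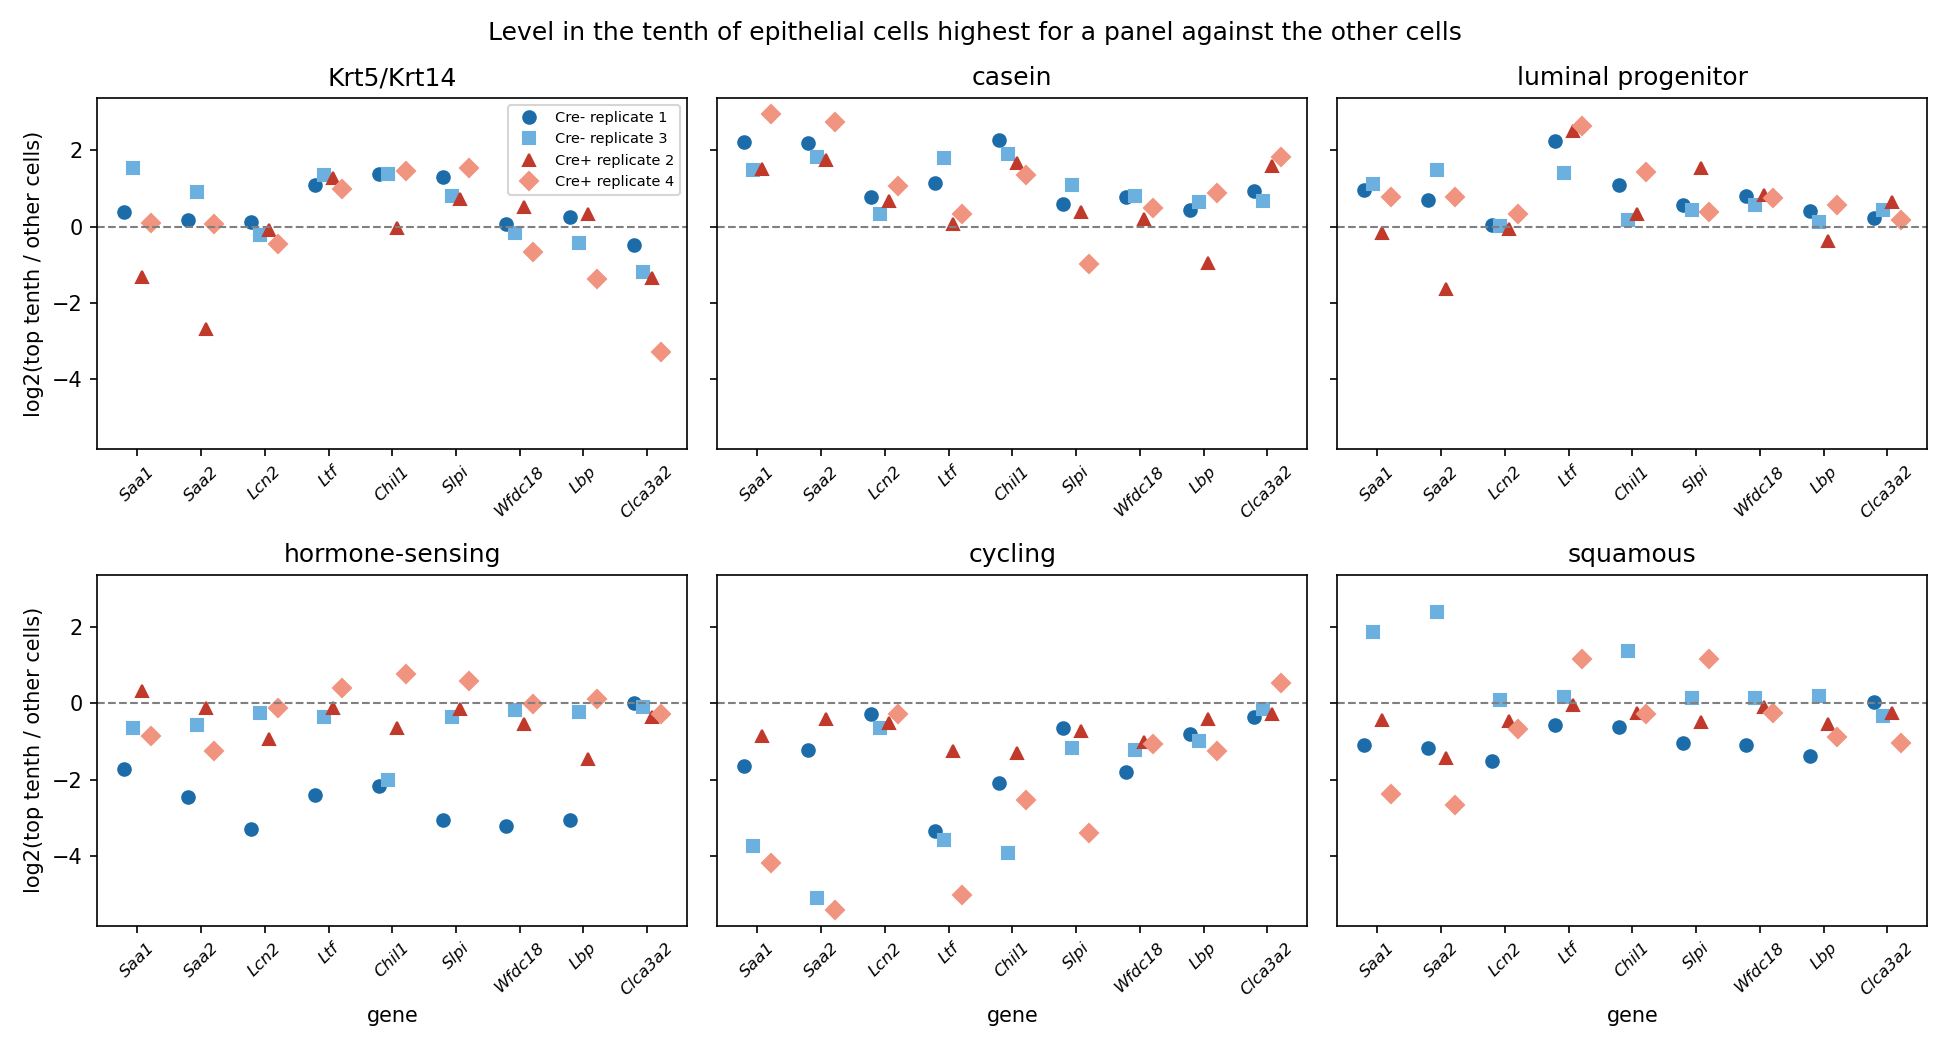
Difference of each gene between the 10% of epithelial cells highest for a panel and the other epithelial cells, as log2 of the ratio of levels, with 1 point per library and a dashed line at 0. In the casein panel 7 of 9 genes lie above 0 in all 4 libraries, and in the luminal progenitor panel Ltf lies highest (1.41 to 2.63). In the cycling panel 8 of 9 genes lie below 0 in all 4 libraries. The share of all genes that do so was not computed.

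The remaining 3 panels are given as a description. For them, the share of all genes moving in 1 direction in 4 of 4 libraries was not computed. Cells high for cell cycle genes (Mki67, Top2a, Cdk1, Ccnb1 and Ube2c) held less of 8 of the 9 members in 4 of 4 libraries. Ltf was at 1.78, 2.38, 0.15 and 0.194 per 10,000 in these cells against 18.1, 5.62, 1.78 and 6.29 in the rest, and Saa1 at 1.91, 1.21, 0.0858 and 0.0339 against 5.98, 2.19, 1.15 and 0.611. Wfdc18 was at 73.6, 62.8, 72.9 and 89.1 against 255, 126, 170 and 185. Lcn2 differed least among the 8, with a mean log2 ratio of -0.43 ± 0.17 (SD, n = 4). Clca3a2 was higher in Cre+ replicate 4 (2.12 against 1.46) and lower in the others. Cycling-high cells were deeper than the rest in replicates 1 and 2 and shallower in replicates 3 and 4.

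Cells high for hormone-sensing genes (Esr1, Pgr, Prlr, Cited1, Foxa1 and Areg) held less Saa2, Lcn2 and Wfdc18 in 4 of 4 libraries. The difference came mainly from Cre- replicate 1, where the panel itself reached 43.8 per 10,000 in the top 10% against 24.2, 5.46 and 2.17 in replicates 2, 3 and 4. There Lcn2 was at 10.6 against 104, Wfdc18 at 27.2 against 252 and Lbp at 0.117 against 0.978. In replicate 4, with the lowest panel, Lcn2 was at 40.3 against 44.2 and Wfdc18 at 174 against 177. Clca3a2 barely differed in any library (mean log2 ratio -0.17 ± 0.17). For squamous genes (Krt6a, Krt10, Sprr1a, Sprr1b, Krtdap and Lor), 0 members moved in 1 direction in all 4 libraries, and Saa2 ranged from -2.66 (Cre+ replicate 4) to 2.41 (Cre- replicate 3).

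Among 24 other acute-phase and antimicrobial genes, 4 had epithelial cells as the highest class in all 4 libraries and 13 in none. The 4 were Cp (ceruloplasmin, 1.34 to 7.42 per 10,000 in epithelium), Pigr (the receptor that carries antibodies into secretions, 0.522 to 0.994), Wfdc12 (0.141 to 0.943) and Lpo (lactoperoxidase, at most 0.0131). Hp (haptoglobin) was highest in neutrophils and C3 and Cfb of complement in fibroblasts, each in 4 of 4 libraries. Lyz1 and Lyz2 (lysozymes) were highest in macrophages or monocytes in 4 of 4. S100a8 and S100a9 were highest in neutrophils in 4 of 4, but both belong to the panel that defined this class. Their leading class, and their place among the 13, thus followed largely from the assignment of cells. Saa3, a further serum amyloid A gene, was highest in fibroblasts or macrophages and stood at 0.0263 to 0.0732 in epithelium.

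Between the genotypes, 0 of the 20 tested genes of this list and 0 of 15 regulators passed by edgeR. Without the block, 0 genes of either list passed in any of the 3 panels by edgeR, and the calls that follow were made only with the mouse as a block. In casein-high cells, 2 of 19 tested were called higher (background 1.26%), Lrg1 (a leucine-rich acute-phase glycoprotein, log2 fold change 1.21, adjusted p = 0.0046 by edgeR) and Pigr (0.94), and 2 lower (background 1.72%), Hp (-2.05) and Lyz2 (-2.04). Of the 15 regulators 0 passed there. In progenitor-high cells, 6 of 19 were called higher (background 11.4%) and 3 lower (background 12.9%), with the largest changes in Cp (1.33), Wfdc2 (-1.24), Wfdc12 (1.19) and Lyz2 (-1.09). Of the 15 regulators, 3 were called higher and 1 lower, together a share near the background of 24.3% in either direction. Higher were Osmr (a receptor chain for oncostatin M, 0.78), Ehf (an ETS factor of epithelia, 0.68) and Nfkbia (an inhibitor of NF-kB, 0.55). Socs3 (an inhibitor of cytokine signaling, -0.39) was lower. In basal-high cells 1 of 20 was called, a share near the background of 4.9% in either direction, Pglyrp1 (a peptidoglycan recognition protein, -1.05). Of the 15 regulators, 2 were called higher (background 2.81%), Relb (0.87) and Nfkbia (0.83), and 1 lower (background 2.09%), Bcl3 (-0.54). All these genes had an adjusted p of 0.041 or below by edgeR. Hp, Lyz2, Pglyrp1 and Lrg1 had their highest class outside epithelium in 4 of 4 libraries, and the part of RNA from those cells was not tested.

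Of 10222 genes found in at least 5% of epithelial cells of every library, those whose level per cell was most like the mean log level of the 9 members were Csn3 (a casein, mean Pearson correlation over the 4 libraries 0.58, range 0.39 to 0.79), Itm2b (0.53), Fxyd3 (0.51), Trf (transferrin, 0.51) and Plet1 (0.51). Cp held rank 7 with 0.48 and Lrg1 rank 9 with 0.47. These correlations run across cells of a library, which share depth and free RNA, and Csn3 is a gene of the casein panel.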

How the data were processed

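Sorted cells of mammary tumors had been sequenced from 3' ends in 4 libraries (10x Genomics, v3 chemistry). The deposited matrices hold UMI counts per gene and barcode, which the authors made with Cell Ranger. The file headers name version 6.1.2 for replicates 1 to 3, whose files hold called cells. They name version 4 for replicate 4, whose file holds 2582424 barcodes. The processing notes in the labels list only build hg38, a human build, although the genes carry mouse identifiers, and the files name no build, so coordinates come only from RefSeq (GRCm38.p6). Libraries held 112729231 to 157662955 UMIs.

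Barcodes with at least 1000 UMIs and at most 20% mitochondrial UMIs were kept, which removed 13.0 to 22.1% of those over 1000 UMIs by the mitochondrial limit. Cells not epithelial were assigned to the highest of 8 marker panels if it reached 5 per 10,000 UMIs. Counts were summed per library and tested with edgeR 4.0.16 in R 4.3.3 (glmQLFit and glmQLFTest, TMM, filterByExpr, Benjamini-Hochberg, threshold 0.05). DESeq2 1.42.0 was an alternative, as were other size factors, no filter, other cell limits and each library left out. Levels, shares and motifs were computed in Python 3.11.15. The edgeR step was run on simulated data only without the block and with no effect of the mouse. That run therefore does not cover the fits with the block, from which the calls of members by edgeR came. Both sums of a panel split come from 1 mouse, and their deviations from the group means correlated at 0.39 to 0.72. With each library taken as 1 mouse, the genotype p-values measure the spread between mice. Those of the panel fits with the block measure how the difference within a mouse varied between mice. Intervals and limits from counts cover counting error only.

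Named were the 9 members, up to 4 called genes with the largest absolute log2 fold change from each of the lists of related genes and regulators in each comparison, and the 5 genes most alike. Cp and Lrg1 among the next alike genes, and the genes named with their leading class, were chosen after their values were seen. The members and lists were chosen with earlier results of these data known. Protein sequences were not used here.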

Additional observations from a re-analysis of the deposited data

How the results depend on the processing

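With 2 mice per genotype, and 4 in all, the counts of genes called moved with the setting, and the cause was not tested. For genotype, 0 genes were called by edgeR, 54 by DESeq2 and 0 to 4 with 1 library left out. For the casein panel without the block, 0 became 183 with DESeq2, 3 without the filter, 439 with the mouse as replicate block and 0 to 45 with 1 library left out. With the block, 439 became 188 without cells holding another panel, 220 at an epithelial cut of 20, 186 in thinned cells, 125 under upper limits on genes and UMIs, and 46, 53, 108 and 2339 without replicates 1, 2, 3 and 4. For the basal panel, 0 became 461 with DESeq2, 11 without the filter and 731 with the replicate block, and the last became 232 in thinned cells and 149, 349, 15 and 1213 without replicates 1, 2, 3 and 4. For the luminal progenitor panel, 93 became 681 with DESeq2, 3593 with the replicate block, 1 in thinned cells, 0 under the upper limits and 0 with any library left out. With the block, 3593 became 633 in thinned cells, 1434 under the upper limits and 1972 to 3111 with 1 library left out. The median log2 ratio of epithelial to other cells over the members fell from 4.53 to 2.76 at an epithelial cut of 20, which by construction counts weaker epithelial cells among the others.

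Log2 fold changes that changed sign were these. For genotype without replicate 1, Saa1 stood at 0.41, Saa2 at 0.51, Ltf at 1.90, Chil1 at 1.38 and Wfdc18 at 0.0002. Without replicate 2, Wfdc18 was at 0.055, and without replicate 4, Lcn2 was at 0.062 and Chil1 at 0.77. The lowest values with 1 library left out were -2.33 for Saa1, -2.01 for Saa2, -1.42 for Ltf, -1.12 for Lcn2, -4.38 for Chil1 and -0.73 for Wfdc18. For the basal panel without the block, Saa1 was at -0.18 under the upper limits, Saa2 at 0.13 in thinned cells and 0.30 without replicate 2, and without replicate 4 Wfdc18 was at 0.14 and Lbp at 0.047, while with another library left out Saa2 reached -0.45 and Lbp -0.39. With the block, Saa1 was at -0.57 without cells holding another panel, -0.52 at a cut of 20, -0.22 under the upper limits and -0.25 without replicate 3. Saa2 was at 0.080 in thinned cells and 0.38 without replicate 2, and without replicate 4 Wfdc18 was at 0.17 and Lbp at 0.084. For the luminal progenitor panel without the block, Saa1 was at -0.47 and Saa2 at -0.59 under the upper limits, and Lcn2 at -0.0072 at a cut of 20, -0.038 without the filter and under the upper limits, and -0.030 without replicate 4 (0.083 without replicate 2). With the block under the upper limits, Saa1 was at -0.27, Saa2 at -0.66, Lcn2 at -0.032 and Chil1 at -0.16, and Lcn2 was at -0.029 without replicate 4. The settings combined with the replicate block, and leaving out the B class for Slpi, were chosen after seeing the data. In all, 636 other values for single genes were unchanged. Among these, tested values kept their direction and their side of the threshold. Factors of epithelial to other cells, which have no threshold, kept their direction and moved by less than their SD between libraries. A further 26 values with the same direction came to pass the threshold, 27 no longer passed it, and 8 factors moved by more.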
